A study of Mus musculus with 4 samples.

Results

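The extracellular matrix genes described here were picked by symbol: collagen and laminin chains, nidogens, perlecan, fibronectin, fibulins, fibrillins, Sparc, tenascin C, small proteoglycans, versican, the lysyl oxidase family, the matrix metalloproteinases (Mmp) and their tissue inhibitors (Timp). A probe set, the group of short oligonucleotides that reads a transcript on the array, was taken if the platform annotation gave it exactly 1 gene symbol and that symbol was on the list. This gave 67 genes read by 113 probe sets, out of 13320 genes read by 24679 single-symbol probe sets. The samples were 4 cerebellar tumors from mice of the genotype Chd7-het on a mixed CD1xC57BL/6 background, numbered 1, 2, 4 and 5, each hybridised as total RNA to 1 Affymetrix array. All 4 belong to 1 group. The labels give no other allele or agent, no driver of the tumors, no age and no sex, and no normal cerebellum or tumor of another genotype was analysed here.

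The extracellular matrix is the protein and sugar scaffold between cells. In brain it includes a thin basement membrane of type IV collagen, laminin, nidogen and perlecan around vessels and under the meninges and a loose, hyaluronan-rich matrix with versican around neural cells. Fibrillar collagens are made mostly by fibroblasts of the meninges and larger vessels. Metalloproteinases cut matrix proteins, Timp proteins hold them in check, and lysyl oxidases crosslink collagen and elastin.

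Levels are log2 signals. Signals were read against a floor of 5.12, set at the 40th percentile of an array (the median of the 4 such values), below which a signal was treated as not measurable. A gene was tested if the mean of its brightest probe set reached 5.87, the median of all means. Of the 67 matrix genes, 27 reached it, among 8498 genes in all. Another 2, Lamc1 and Lum, lay above the floor in all 4 tumors but under the filter. A further 10 untested genes lay above the floor in some tumors, and 28 in none. The tested genes are therefore those with the higher signals, and counts over them do not speak for the whole list.

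Of the 67 matrix genes, 28 were under the floor in every tumor. By its setting the floor leaves about 40% of an array under it. Of all probe sets outside the controls, 61.3, 60.8, 59.2 and 59.1% lay above it in tumors 1, 2, 4 and 5. Of the 113 matrix probe sets, 55, 56, 50 and 51 did. The share of all genes under the floor in every tumor was not counted, so the counts below have no background. Of the 14 collagens outside the fibrillar and basement membrane classes, 9 stayed under the floor in every tumor and 1, Col9a3, was tested. Of 10 metalloproteinases, 6 stayed under it in every tumor: Mmp3 and Mmp13, which cut collagens and proteoglycans in inflamed tissue, Mmp9, the gelatinase of neutrophils, and Mmp11, Mmp17 and Mmp19. Col1a1, the partner of Col1a2 in type I collagen, read 3.62, 3.23, 1.77 and 0.93 in tumors 1, 2, 4 and 5 on its single probe set, all under the floor. Without detection calls, a reading under the floor does not show that a transcript was absent.

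Every one of the 12 genes listed for granule cell progenitors was measurable in every tumor. Among them was Atoh1, the transcription factor of that lineage, at 9.92, 10.54, 10.81 and 10.90. All 11 genes listed for astrocytes and 11 of 12 for microglia and macrophages were also measurable in every tumor. The count therefore does not single out the progenitor lineage. Markers of vessels were split: 3 of 12 endothelial genes, Cldn5, Esam and Slco1a4, lay above the floor in all 4 tumors. Of the 12, 7 lay above it in none, among them Cdh5 and Kdr. Of 7 mural cell genes 3 lay above it in all 4 tumors, with Rgs5 between 7.84 and 9.22. Of 7 meningeal fibroblast genes 4 did. Tumor 1 stood apart from the others over all genes, where 4 of 5 tested mature neuron genes and 5 of 5 tested Purkinje and inhibitory neuron genes passed as higher in the comparison described next, against 1.29% of all genes passing in either direction. So did 3 of 7 oligodendrocyte, 2 of 11 astrocyte and 2 of 12 granule cell progenitor genes, while 1 of 12 microglia and macrophage genes, Ptprc, passed as lower. The signs within these lists were mixed. Without passing, 3 of 7 oligodendrocyte, 2 of 11 astrocyte and 7 of 12 progenitor genes were lower in tumor 1. The median difference of the progenitor genes there was -0.28, and that of Atoh1 was -0.83. Choroid plexus genes differed by gene: the 4 probe sets of Ttr, the transthyretin gene of that epithelium, read between 11.61 and 12.49 in tumor 5, and between 0 and 5.70 in the other tumors. Folr1, Kcne2 and Kl were above the floor in tumor 5 only. The 2 choroid plexus genes tested, Clic6 and Otx2, did not pass in any tumor; Clic6 read 9.15, 7.11, 6.29 and 8.73 and Otx2 9.18, 9.46, 9.16 and 9.33. In bulk tissue, fewer cells of a type and less RNA per cell cannot be told apart.

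Each tumor was compared with the other 3, over all 8498 genes, to ask whether any matrix gene lay outside the spread of the rest. A gene passed at an adjusted p under 0.05 (limma with Benjamini-Hochberg adjustment) and a 2-fold difference. None of the 27 matrix genes passed in any tumor. In tumor 1 the share passing was 0 of 27, against 1.29% of all genes. In tumors 2, 4 and 5 it was 0 of 27 as well, against 0.0% of all genes in each. At an unadjusted p under 0.05 there were 7, 6, 3 and 3 matrix genes in tumors 1, 2, 4 and 5, and 951, 496, 47 and 306 of all genes. The smallest adjusted p of a matrix gene was 0.0714, that of Timp2 in tumor 1. The results below are thus levels and differences of single arrays whose technical error was not measured, and with 1 array per tumor the number of arrays limits the precision.

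**Figure D1:**
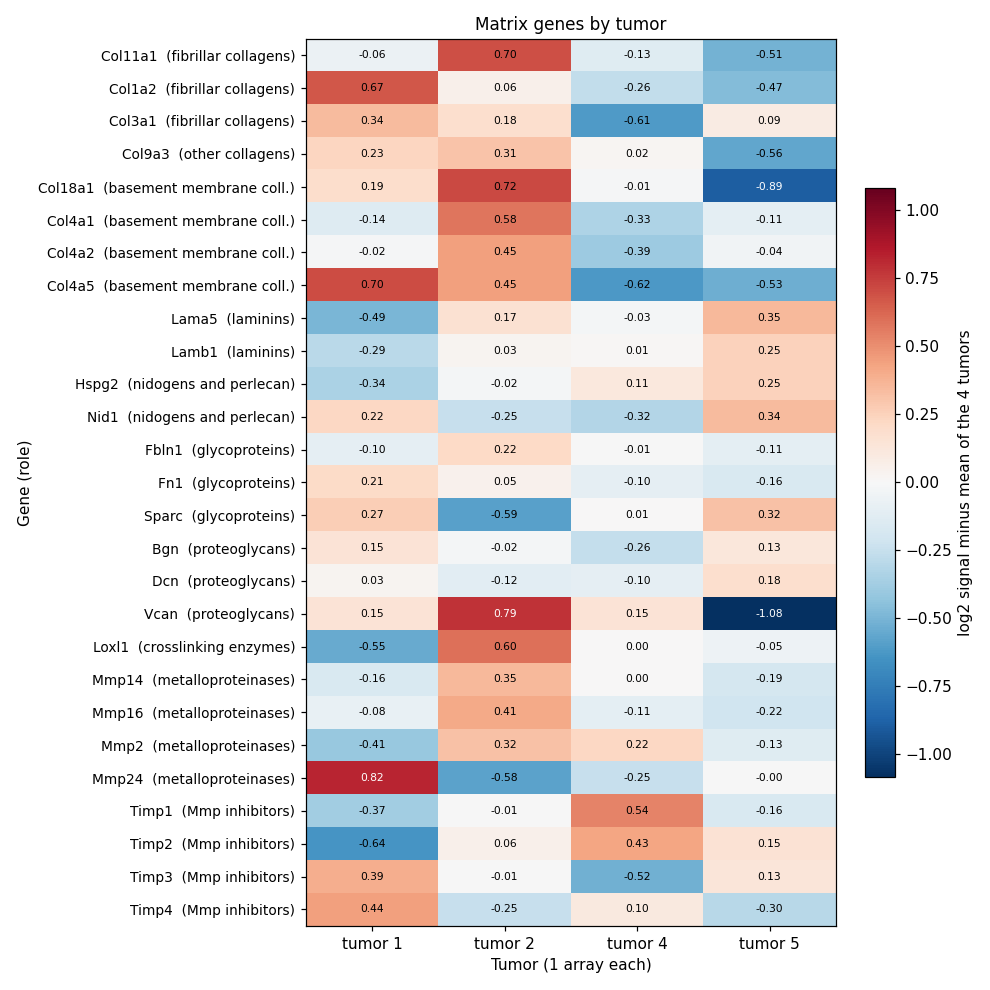
Log2 signal of the 27 tested matrix genes minus the gene's mean over the 4 tumors, 1 column per tumor and 1 row per gene, grouped by role, with signals under the floor raised to it. Vcan in tumor 5, at -1.08, is the lowest value and Mmp24 in tumor 1, at 0.82, the highest.

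The matrix genes varied more between tumors than genes in general. Their SD over the 4 tumors had a median of 0.38 on the log2 scale (27 genes, from 0.14 for Dcn to 0.78 for Vcan), and that of all genes tested a median of 0.17. Of the 27, 24 lay above the median of all genes. Low signals are noisier on this scale, so the same values were read in bands of mean signal set after the data were seen. Below 6.5, the median SD was 0.37 for 12 matrix genes and 0.22 for all 1273 genes in the band. Between 6.5 and 7.5 it was 0.30 for 8 matrix genes and 0.18 for all 2248, and from 7.5 up it was 0.40 for 7 matrix genes and 0.16 for all 4977. In each band the matrix genes thus had the wider spread, and 24 of 27 exceeded the median of their own band. These are descriptions without a test.

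**Figure D2:**
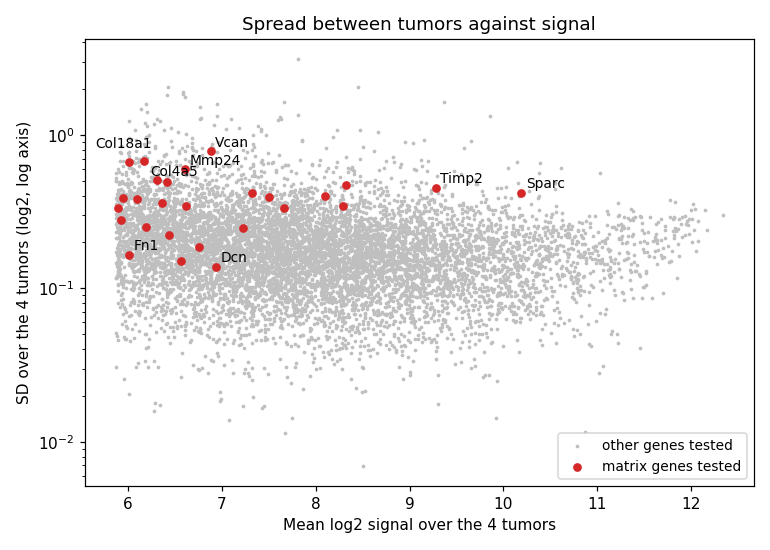
SD over the 4 tumors (log axis) against mean log2 signal, 1 point per gene tested, with the 27 matrix genes in red. Most red points lie in the upper part of the grey cloud at their signal; Dcn and Fn1 lie in its middle, and Vcan, at 0.78, is the highest red point.

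The tumors did not hold the extremes equally. Tumor 2 read highest of the 4 in 11 of 27 matrix genes (40.7%), against 26.4% of all genes, and lowest in 3, against 29.1%. Tumor 5 read lowest in 10 (37.0%), against 22.1% of all genes, and highest in 6, against 30.9%. Tumor 4 read lowest in 7, against 17.3%, and highest in 2, against 19.1%. Tumor 1 read highest in 8, against 23.4%, and lowest in 7, against 31.3%. The median difference over the 27 genes was 0.036, 0.22, -0.033 and -0.14 in tumors 1, 2, 4 and 5 against the rest, beside -0.036, -0.017, 0.0037 and 0.038 over all genes tested. These medians turned with the settings: with the filter at the 75th percentile, which left 6 matrix genes, they were -0.13 in tumor 2 and 0.067 in tumor 5, with no filter both were 0, and without tumor 2 that of tumor 5 was 0.15. Without tumor 5, that of tumor 1 was -0.16.

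The network-forming chains of type IV collagen came first. Col4a1 and Col4a2 encode the chains that wind together into the main collagen of every basement membrane. Their genes lie head to head, and the RefSeq promoter windows (GRCm38.p6, 250 bases before to 50 after the start) overlap. Both are shown because the pair kept the same order of tumors at the top and the bottom. Whether the overlap bears on that order was not tested. Capitals mark the 78 bases the windows share, chr8:11312777-11312854, read on opposite strands. Col4a1 lies at chr8:11312777-11313076 on the minus strand and Col4a2 at chr8:11312555-11312854 on the plus strand:
Col4a1: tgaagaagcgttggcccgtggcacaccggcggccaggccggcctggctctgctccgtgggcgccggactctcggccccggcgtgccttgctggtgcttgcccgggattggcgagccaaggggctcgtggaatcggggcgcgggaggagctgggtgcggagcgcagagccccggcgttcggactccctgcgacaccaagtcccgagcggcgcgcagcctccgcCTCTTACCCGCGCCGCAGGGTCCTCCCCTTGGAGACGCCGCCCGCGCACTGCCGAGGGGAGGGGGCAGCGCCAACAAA
Col4a2: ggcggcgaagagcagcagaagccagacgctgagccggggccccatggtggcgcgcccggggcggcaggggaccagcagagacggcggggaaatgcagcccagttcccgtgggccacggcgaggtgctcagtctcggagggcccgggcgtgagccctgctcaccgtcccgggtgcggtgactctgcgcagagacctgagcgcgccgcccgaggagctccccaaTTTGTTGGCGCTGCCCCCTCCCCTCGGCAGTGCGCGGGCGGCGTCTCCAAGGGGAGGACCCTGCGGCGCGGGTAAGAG
Of 27025 genes with a window, 11.9% have one that overlaps the window of another gene on the other strand. The Col4a1 window has 74.0% G and C and the Col4a2 window 73.7%, against a median of 52.7% over all windows. The letters GGGCGG, on either strand, occur once or more in both and in 35.7% of all 32851 windows. The letters TATAAA occur in neither and in 13.6% of all.

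Col4a1 read 7.97, 8.68, 7.77 and 8.00 in tumors 1, 2, 4 and 5. Its second probe set, 1426348_at, read 5.74, 6.30, 5.68 and 6.03. Both put tumor 2 highest and tumor 4 lowest. Col4a2 read 6.61, 7.07, 6.23 and 6.59, again with tumor 2 highest and tumor 4 lowest and the other tumors close together. In tumor 2, Col4a1 stood at 8.68, against 7.91 ± 0.12 in the other 3 (SD, n = 3), a difference of 0.77 (SE 0.17, limma adjusted p = 0.795). Col4a2 stood 0.59 higher there (SE 0.24, adjusted p = 0.795). In tumor 4 the differences were -0.44 and -0.52 (adjusted p = 1.00 for both). Neither gene passed, though the 3 probe sets of the pair agreed on both extremes.

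The other basement membrane collagens had different orders. Col4a5, a chain of the type IV network of kidney, eye and some other tissues, read 6.88, 6.62, 5.55 and 5.65 in tumors 1, 2, 4 and 5. Tumors 1 and 2 thus lay about 1 log2 unit above tumors 4 and 5, with no overlap between those pairs, which were chosen after the values were seen. Its difference in tumor 1 was 0.94 (SE 0.39, limma adjusted p = 0.406). Col18a1, whose product carries the endostatin fragment, read 6.20, 6.73, 6.00 and 4.91, under the floor in tumor 5. Its other probe set, 1418237_s_at, read 5.24, 5.84, 5.32 and 4.69. Both placed tumor 2 highest and tumor 5 lowest. Tumor 5 lay at least 2.28-fold lower than the mean of the other 3 (-1.19, SE 0.33, adjusted p = 0.957).

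Laminins are cross-shaped trimers of an alpha, a beta and a gamma chain that anchor cells to the basement membrane. Lama5, an alpha chain of mature vessels, read 5.87, 6.53, 6.34 and 6.72 in tumors 1, 2, 4 and 5. Lamb1, the common beta chain, read 6.15, 6.47, 6.45 and 6.69. Hspg2, perlecan, the heparan sulfate proteoglycan that joins laminin to collagen IV, read 5.85, 6.17, 6.31 and 6.44. All 3 genes were lowest in tumor 1 and highest in tumor 5, unlike Col4a1 and Col4a2. The differences in tumor 1 against the other 3 were -0.66, -0.39 and -0.45 for Lama5, Lamb1 and Hspg2 (limma adjusted p = 0.283, 0.584 and 0.521). Lamb1 was read here by 1424114_s_at; of its 3 other probe sets, 2 were under the floor in every tumor and 1424113_at lay above it in tumor 5 only, at 5.45. The second Lama5 probe set, 1427010_s_at, read 4.69, 5.23, 5.56 and 6.39, with the same lowest and highest tumors.

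The other laminins were under the filter and had other orders. Lamc1, the common gamma chain, read 5.92, 5.86, 5.53 and 5.68, a range of 0.39 with tumor 1 highest. Lama1, the alpha chain of the meningeal surface, read 5.25, 5.69, 5.10 and 4.43, and Lama2, of vessels and muscle, 5.33, 4.50, 4.26 and 3.71. Both were under the floor in tumors 4 and 5, and Lama2 also in tumor 2. Lama3, Lamb2 and Lamc3 stayed under the floor. Nid1, nidogen 1, which bridges laminin and collagen IV, read 7.88, 7.41, 7.35 and 8.01 in tumors 1, 2, 4 and 5. Tumors 1 and 5 lay above tumors 2 and 4 for Nid1, another order within the same structure, and its dimmer probe set 1448469_at, at 4.80, 4.56, 4.77 and 5.18, reached the floor only in tumor 5. Nid2 was under the floor in every tumor.

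**Figure D3:**
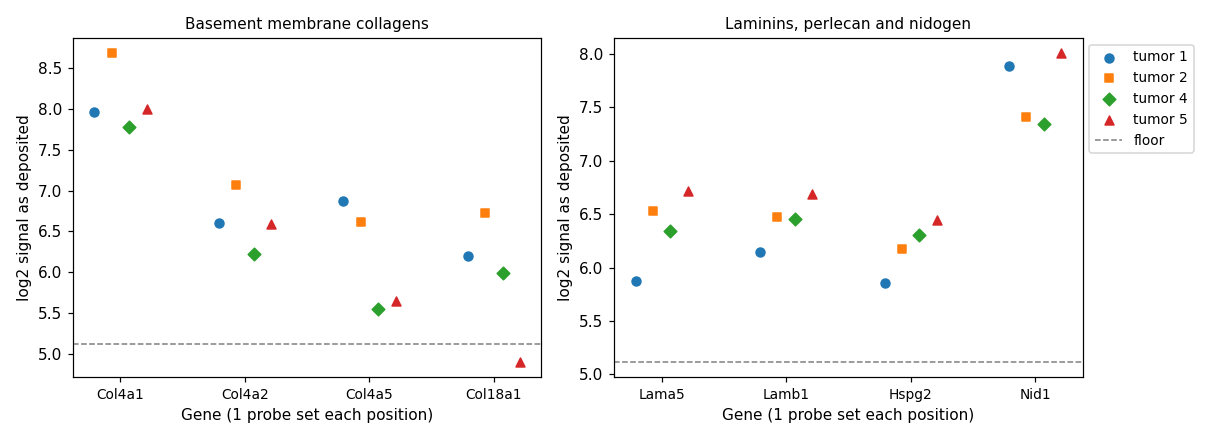
Log2 signals as deposited of 4 basement membrane collagens (left) and of 2 laminins, perlecan and nidogen 1 (right), 1 point per tumor, with the dashed line at the floor of 5.12. Tumor 2 is highest for Col4a1, Col4a2 and Col18a1, and tumor 5 for all 4 genes on the right.

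Among the fibrillar collagens, the rope-like collagens of connective tissue, the widest difference belonged to a gene the mean filter left out. Col5a2, a chain of type V collagen that sets the width of collagen fibrils, read 7.17, 5.38, 4.01 and 4.13 in tumors 1, 2, 4 and 5 on its brighter probe set, 1422437_at. Its other probe set, 1450625_at, read 6.66, 4.81, 1.38 and 2.10. Both were highest in tumor 1. Tumors 4 and 5 were under the floor on both, and tumor 2 on the dimmer one. With no filter on the mean, Col5a2 was the 1 matrix gene of 67 that passed in tumor 1, against 0.736% of the 13320 genes then tested. It was at least 3.89-fold higher there than in the other 3 (log2 difference 1.96, SE 0.15, limma adjusted p = 0.0410). Raising tumors 4 and 5 to the floor gives them the same value, which narrows the spread this test used. Of the matrix genes under the filter, Col5a2 was the only one above the floor by 2-fold or more in any tumor.

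Col3a1, the RefSeq neighbour of Col5a2, encodes the chain of type III collagen in vessel walls and meninges. It read 7.66, 7.50, 6.71 and 7.41, with tumor 1 highest and tumor 2 next, as for Col5a2. Tumor 4 was low and the other 3 close together: it stood at 6.71, against 7.52 ± 0.13 (SD, n = 3), a difference of -0.81 (SE 0.22, limma adjusted p = 1.00). Its other probe set, 1427884_at, was under the floor in all tumors, at 4.24, 4.22, 3.47 and 4.32, and gives no order. Col1a2, the second chain of type I collagen, read 7.09, 6.48, 6.16 and 5.96. Tumor 1 was highest, by 0.89 over the mean of the other 3 (SE 0.25, adjusted p = 0.167). Its dimmer probe set, 1423110_at, read 5.34, 4.91, 4.31 and 4.47, above the floor in tumor 1 only.

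The promoter windows of these fibrillar chains are shown beside those of the type IV pair. Capitals mark CCAAT on either strand. Col1a2 lies at chr6:4505368-4505667 on the plus strand and Col3a1 at chr1:45311288-45311587 on the plus strand (RefSeq, GRCm38.p6):
Col1a2: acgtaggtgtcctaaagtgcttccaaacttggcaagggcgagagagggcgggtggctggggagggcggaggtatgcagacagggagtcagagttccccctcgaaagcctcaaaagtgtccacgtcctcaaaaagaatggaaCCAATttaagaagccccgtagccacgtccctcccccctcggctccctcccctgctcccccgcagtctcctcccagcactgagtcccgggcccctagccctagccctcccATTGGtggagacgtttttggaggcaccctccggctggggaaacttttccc
Col3a1: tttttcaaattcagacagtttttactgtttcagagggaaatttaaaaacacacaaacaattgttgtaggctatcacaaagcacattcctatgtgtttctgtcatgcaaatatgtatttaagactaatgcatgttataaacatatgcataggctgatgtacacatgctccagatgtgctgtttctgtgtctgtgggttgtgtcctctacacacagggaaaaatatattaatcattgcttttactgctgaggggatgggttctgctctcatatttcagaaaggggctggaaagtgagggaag
CCAAT, on either strand, occurs 2 times in the Col1a2 window, 0 times in that of Col3a1 and in 37.4% of all windows. It occurs 1 time in each of the Col4a1 and Col4a2 windows. GGGCGG, found in both type IV windows, occurs 2 times in that of Col1a2 and 0 times in that of Col3a1. The Col3a1 window holds TATAAA 1 time and has 37.7% G and C, against 61.0% in that of Col1a2. A match is a run of letters and not a shown binding site. Of the 27 tested genes, 21 had a window in the table.

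**Figure D4:**
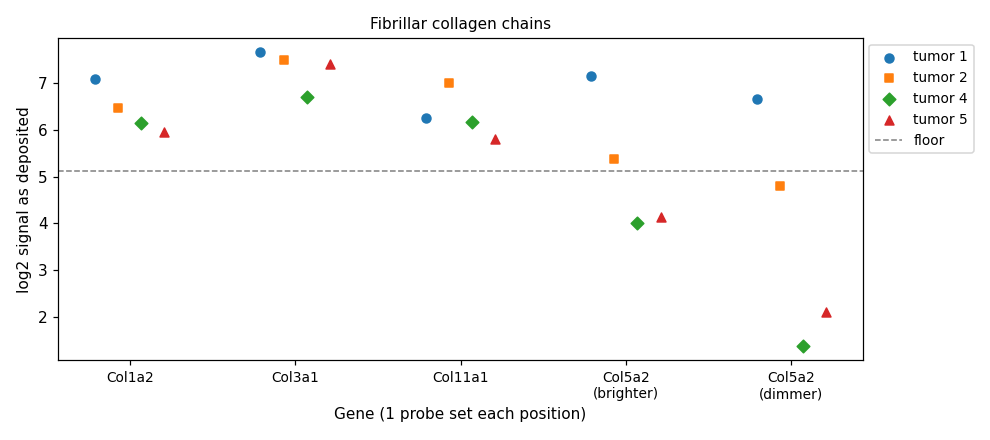
Log2 signals as deposited of Col1a2, Col3a1, Col11a1 and both probe sets of Col5a2, 1 point per tumor, with the dashed line at the floor of 5.12. Both Col5a2 probe sets read highest in tumor 1, at 7.17 and 6.66, and lie under the floor in tumors 4 and 5.

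Markers of vessel wall cells and the chaperone of collagen were read beside these chains. Rgs5, a pericyte gene, read 9.22, 8.23, 7.84 and 8.34 in tumors 1, 2, 4 and 5, and Cldn5, the claudin of brain endothelium, 7.19, 6.93, 6.50 and 6.92. The summed linear signal of the 7 mural genes was 848, 542, 456 and 504, and that of the 12 endothelial genes 505, 453, 376 and 438. Both sums were highest in tumor 1 and lowest in tumor 4. Most of the mural sum came from Rgs5. Pdgfrb, the pericyte receptor, read 5.72, 5.05, 4.84 and 4.50, also highest in tumor 1 and under the floor elsewhere. Abcc9, at 5.28, 5.15, 5.13 and 4.85, and Acta2, at 5.15, 4.94, 5.08 and 4.73, were highest there too, close to the floor. Kcnj8 was under the floor in every tumor. Cspg4, at 5.41, 6.18, 5.77 and 5.14, was highest in tumor 2, and Notch3, at 5.69, 5.79, 5.83 and 5.34, in tumor 4. The other endothelial genes tested went other ways than Cldn5, with Esam at 6.20, 5.96, 6.12 and 6.33 and Slco1a4 at 6.17, 6.45, 6.31 and 6.06. Serpinh1, the chaperone Hsp47 that folds procollagen, read 9.21, 8.51, 8.24 and 8.93, with the same extremes. Of the tested matrix genes, Col3a1, Col4a5, Bgn and Timp3 also had tumor 1 highest and tumor 4 lowest. Over all genes tumor 1 was highest in 23.4% and tumor 4 lowest in 17.3%, and the share with both was not counted. The part of vessel wall cell number in these differences was not tested. Summed meningeal fibroblast signal went another way, at 1758, 2375, 2036 and 1877, most of it from Pdgfra, which oligodendrocyte progenitors also express. The genes of that list were split. Igf2 read 8.29, 8.03, 6.83 and 7.57, with tumor 1 highest and tumor 4 lowest, while 3 of the 4 tested were lower in tumor 1 than the mean of the rest.

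Cartilage-type chains also occur in neural tissue. Col11a1, a fibrillar chain that seeds collagen fibrils, read 6.25, 7.01, 6.18 and 5.80, and its second probe set, 1418599_at, 5.82, 6.32, 5.54 and 5.58. Both were highest in tumor 2. Its difference there was 0.93 (SE 0.26, limma adjusted p = 0.795). Col9a3, a chain of the fibril-associated collagen IX, read 7.74, 7.81, 7.52 and 6.94, and its second probe set 7.53, 7.62, 7.34 and 7.25. Tumor 5 was the lowest on both, by 0.75 on the brighter one (-0.75, SE 0.20, adjusted p = 0.957).

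Versican (Vcan), the large proteoglycan that binds hyaluronan in the matrix around neural progenitors, spanned the widest range of the tested genes, 1.87 on the log2 scale or 3.65-fold. It read 7.03, 7.67, 7.03 and 5.80 in tumors 1, 2, 4 and 5. Tumor 5 lay under all the others, at 5.80 against 7.25 ± 0.37 (SD, n = 3), a difference of -1.44 (SE 0.30, limma adjusted p = 0.957). The next probe sets by signal, 1421694_a_at and 1427257_at, read 5.11, 5.90, 4.82 and 4.30, and 4.52, 5.37, 4.94 and 3.94. Tumor 2 was highest on all 3; on the dimmer ones the other tumors were under the floor and have no order. When tumor 1 was left out, Vcan (-1.55, adjusted p = 2.33e-05) and Col18a1 (-1.30, adjusted p = 0.000908) passed in tumor 5 against tumors 2 and 4. These were 2 of 27 matrix genes, against 0.554% of all genes, in a fit of 3 arrays. Cspg4, which encodes the NG2 proteoglycan of pericytes and oligodendrocyte progenitors and was singled out after its values were seen, read 5.41, 6.18, 5.77 and 5.14, with the same extremes as Vcan. Other genes of that lineage went other ways. Olig1 read 10.08, 10.31, 10.50 and 10.54 and Olig2 7.49, 8.18, 8.01 and 8.27, both highest in tumor 5. Pdgfra, at 10.19, 10.77, 10.48 and 10.31, and Sox10, at 5.67, 6.87, 6.49 and 6.07, were highest in tumor 2 but lowest in tumor 1. Tumor 5 is also the one with the Ttr signal given above. The part of cell makeup in the Vcan difference was not tested.

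The small leucine-rich proteoglycans coat collagen fibrils. Dcn, decorin, read 6.97, 6.82, 6.84 and 7.12, and Bgn, biglycan, 6.90, 6.73, 6.50 and 6.88. Lum, lumican, the RefSeq neighbour of Dcn, read 5.92, 5.56, 5.24 and 5.95. Tumor 5 was highest and tumor 1 next for both Dcn and Lum, with ranges of 0.30 and 0.71. Bgn had tumor 1 highest and tumor 4 lowest on all 3 of its probe sets.

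Adhesive and matricellular proteins differed among themselves. Sparc, which binds collagen and is made by vessels and glia, read 10.45, 9.60, 10.19 and 10.51 in tumors 1, 2, 4 and 5, and on its second probe set 9.70, 8.97, 9.35 and 9.79. Both put tumor 2 lowest: it stood at 9.60, against 10.38 ± 0.17 in the other 3 (SD, n = 3), a difference of -0.79 (SE 0.18, limma adjusted p = 0.795). Sparc was thus lowest in the tumor where Col4a1 and Col4a2 read highest, while Col4a5 was highest in tumor 1. Fn1, fibronectin, read 6.22, 6.06, 5.91 and 5.85, a range of 0.37. Fbln1, fibulin 1, read 6.46, 6.78, 6.56 and 6.45, and its second probe set named another highest tumor. Tnc, tenascin C, of developing brain and glioma, lay above the floor only in tumor 1, at 5.15, against 4.10, 4.08 and 4.75 in the others.

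Of the crosslinking enzymes, Loxl1, which acts on elastin, was tested. It read 7.77, 8.92, 8.33 and 8.27 in tumors 1, 2, 4 and 5 on its only probe set. Tumor 2 was highest and tumor 1 lowest, a 2.21-fold difference between them. Neither extreme passed: 0.79 in tumor 2 (SE 0.25, limma adjusted p = 0.795) and -0.73 in tumor 1 (SE 0.25, adjusted p = 0.276). Loxl3 and Loxl4 stayed under the floor.

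Of the 4 tested metalloproteinases, 3 read highest in tumor 2 on their brightest probe set, as did 26.4% of all genes tested. Mmp14, the membrane-bound enzyme that activates Mmp2, read 7.07, 7.58, 7.23 and 7.04, and on its second measured probe set 5.67, 6.50, 5.90 and 5.63. Mmp16, a related membrane enzyme of brain, read 5.84, 6.33, 5.82 and 5.71. Mmp2, gelatinase A, read 5.48, 6.21, 6.11 and 5.77, with tumors 2 and 4 close together, and on its other probe set 4.97, 5.71, 6.13 and 5.60, with tumor 4 highest. The differences in tumor 2 were 0.47, 0.54 and 0.42 for Mmp14, Mmp16 and Mmp2 (limma adjusted p = 0.795, 0.795 and 0.797). The other probe sets of Mmp16 differed: 1437568_at read 5.42, 5.81, 5.59 and 5.46, also highest in tumor 2, 1422626_at read 4.94, 5.80, 5.55 and 6.15, highest in tumor 5, and the last was under the floor in every tumor. Mmp24, a membrane enzyme found mainly in neurons, went the other way, at 7.44, 6.04, 6.37 and 6.61 in tumors 1, 2, 4 and 5. Tumor 1 lay 2.14-fold above the mean of the other 3 (log2 difference 1.10, SE 0.26, adjusted p = 0.095). The other probe sets of Mmp24 were under the floor in all tumors. Without tumor 5 Mmp24 passed in tumor 1 (1.23, adjusted p = 0.00343), 1 of 27 matrix genes against 2.4% of all genes. Several cell type sums were also highest in tumor 1. The summed linear signal was 5542, 1297, 1580 and 1438 for 10 mature neuron genes, and 3895, 302, 563 and 286 for 8 Purkinje and inhibitory neuron genes. It was 6651, 2458, 3406 and 2608 for 10 oligodendrocyte genes, and 8694, 6545, 7503 and 7831 for 11 astrocyte genes. Such sums are carried by the brightest genes of a list. Of the tested genes, 3 of 7 oligodendrocyte and 2 of 11 astrocyte genes were lower in tumor 1 than the mean of the rest. Among them were Sox10, at 5.67, 6.87, 6.49 and 6.07, and Gfap, at 6.55, 7.52, 7.69 and 7.40. The part of these cell types in the Mmp24 difference was not tested.

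The 4 inhibitors were all measurable. Timp2, which inhibits Mmp2 and also helps Mmp14 to activate it, read 8.64, 9.33, 9.71 and 9.43 in tumors 1, 2, 4 and 5. Timp1, an inhibitor induced by inflammation and gliosis, read 5.57, 5.94, 6.48 and 5.78. On these probe sets both were lowest in tumor 1 and highest in tumor 4. In tumor 1, Timp2 stood at 8.64, against 9.49 ± 0.19 in the other 3 (SD, n = 3), a difference of -0.85 (SE 0.18, limma adjusted p = 0.0714). The other Timp2 probe sets did not all share that order. Of these, 1454677_at read 7.74, 8.27, 8.42 and 7.68, 1433662_s_at 6.72, 7.33, 7.24 and 6.71, and 1420924_at 5.51, 6.06, 5.94 and 5.53. The dimmest, 1450040_at, was under the floor in tumors 1 and 5. Tumors 1 and 5 were low together on each of these, while 1460287_at set tumor 1 alone below. The summed linear signal of the 12 microglia and macrophage genes was 4207, 5091, 7363 and 5484. Its extremes lay in the same tumors as those of Timp1 and of Timp2 on 1460287_at. The genes were split: 10 were lower in tumor 1 than the mean of the rest and 2 were higher. Csf1r, Cx3cr1 and Ly86 were lowest in tumor 5 and C1qa in tumor 2. The part of these cells in the Timp1 and Timp2 differences was not tested.

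Timp3, the inhibitor that stays bound to the matrix, read 6.49, 6.09, 5.58 and 6.23, and on its second measured probe set 6.60, 5.96, 5.23 and 6.06. Tumor 1 was highest and tumor 4 lowest on both. Timp4 read 8.74, 8.04, 8.40 and 7.99, and on its other probe set 7.24, 6.66, 7.16 and 6.99. Tumor 1 was highest for Timp4 on both, by 0.59 on the brighter one (SE 0.20, limma adjusted p = 0.257). In RefSeq, Timp1, Timp3 and Timp4 each lie inside a synapsin gene (Syn1, Syn3 and Syn2), which encodes a synaptic vesicle protein. Syn3 read 7.43, 4.90, 4.89 and 4.98, under the floor outside tumor 1, and Syn2 7.46, 6.77, 6.44 and 6.49. Both were highest in tumor 1, as Timp3 and Timp4 were. Syn1 read 5.70, 5.23, 5.36 and 4.74, under the floor in tumor 5. It too was highest in tumor 1, where Timp1 was lowest. Whether host gene transcripts add to the Timp signals was not tested.

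**Figure D5:**
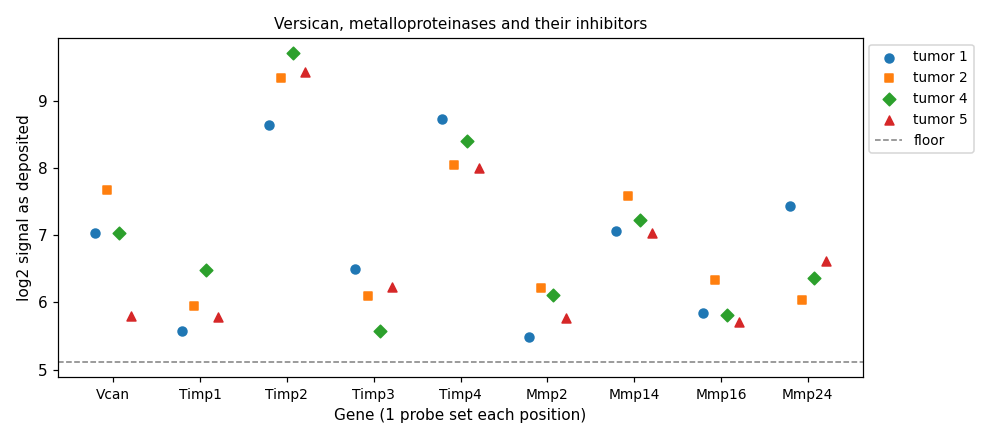
Log2 signals as deposited of versican, the 4 inhibitors and the 4 tested metalloproteinases, 1 point per tumor, with the dashed line at the floor of 5.12. Vcan is lowest in tumor 5, Timp1 and Timp2 are highest in tumor 4 and lowest in tumor 1, and Mmp24 is highest in tumor 1.

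Pairs of tumors were then set side by side. Between tumors 1 and 2, 2 of the 27 matrix genes differed by 2-fold or more, against 2.52% of all genes, and between tumors 1 and 4, 3 did, against 2.45%. Between tumors 1 and 5 there were 4, against 3.13%. Between tumors 2 and 4 there was 1, against 0.424%, between tumors 2 and 5 there were 3, against 1.27%, and between tumors 4 and 5 there was 1, against 0.459%. The genes were Vcan in every pair with tumor 5, Col18a1 in tumors 1 and 2 against tumor 5, Col4a5, Mmp24, Loxl1, Timp2, Col1a2 and Col11a1. No matrix gene was 2-fold apart in more than 3 of the 6 pairs. The same genes and tumors recur in several pairs, which are not independent of each other.

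Where several probe sets of a gene lay above the floor in every tumor, they could be checked against each other. Of 11 such genes, 9 had the same highest tumor on all of them and 6 the same highest and lowest. The exceptions for the highest tumor were Fbln1 and Timp2. Probe sets of a gene share the array, so this bears on the probes and not on the error between arrays.

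The genes that make, bind and process the matrix were read from 5 lists. Of 94 genes listed, 72 were on the table and 33 were tested, of which 0 passed in any tumor in limma. Among 9 genes of collagen synthesis the median difference was -0.14, -0.12, 0.048 and 0.17 in tumors 1, 2, 4 and 5. Serpinh1 had the widest range of them, with a difference of 0.65 in tumor 1 (SE 0.25, adjusted p = 0.328). Among 14 matrix receptors the medians were 0.037, 0.091, 0.0063 and -0.099. Cd44, the hyaluronan receptor, read 7.62, 7.49, 7.44 and 6.87, lowest in tumor 5 as Vcan was, by 0.64 (-0.64, SE 0.20, adjusted p = 0.957). The 3 tested genes of the neural hyaluronan matrix had medians of 0.12, 0.17, -0.21 and -0.28, and the 6 tested genes of other proteases and inhibitors 0.23, 0.046, -0.024 and -0.040. Agrn, agrin, another heparan sulfate proteoglycan of basement membranes, read 7.28, 7.58, 6.94 and 7.05, with the extremes of Col4a1; it was the 1 gene tested of the last list, which holds other matrix proteins.

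The calls depended on which tumors were compared. Leaving out tumor 2, Col1a2 (1.03, limma adjusted p = 0.0303) and Col4a5 (1.28, adjusted p = 0.0183) passed in tumor 1, 2 of 24 matrix genes against 2.44% of all genes. With 1 tumor left out, the lone tumor was set against 2 arrays, and it is assumed to vary as they do. Each p-value rests on the spread among the arrays other than the lone tumor, which limma moderates with the spread of all genes tested. The lone array adds nothing to that spread. The labels do not say whether the tumors came from separate animals or litters, so it is not known whether it is a spread between animals.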

How the data were processed

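Per the labels' protocols, frozen tumor was milled, and its RNA was extracted with TRIzol and cleaned on a column; each tumor was read by 1 array. The deposited values are log2 signals, made by the authors with MAS5, per the submitters' processing notes. Version and scaling target: not given in the sources used here. Because MAS5 subtracts background array by array, low signals are noisy, and array distributions are not aligned. The table held 29304 probe sets, of which 61 Affymetrix controls were left out. Names came from the platform annotation.

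Each tumor was compared with the other 3 in R 4.3.3 with limma 3.58.1 (lmFit, eBayes with an intensity trend) over 8498 genes, after the floor (5.12) and the mean filter (5.87), with the brightest kept probe set per gene. The fit was tested on simulated data. Values in all tumors were given for the 12 genes of widest range and a fixed list of major matrix genes, beside any that passed; Col9a3, Fbln1, Lama1, Lama5 and Mmp16 were added after their values were seen. Members and lists were chosen with earlier results of these data known. Alternatives changed the floor, filter, scaling, probe sets, variance model and tumors.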

Additional observations from a re-analysis of the deposited data

How the results depend on the processing

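No matrix gene passed in any tumor with the floor at the 25th or 50th percentile, the filter at the 75th, quantile normalization, centred arrays, no _x_at or _s_at probe sets, every probe set as a feature or no intensity trend. With no filter, 1 passed in tumor 1. Leaving out 1 tumor gave between 0 and 2 passing genes in tumors 1 and 5, and 0 in tumors 2 and 4. Over the same leave-outs the median difference ranged between -0.16 and 0.20 in tumor 1, between 0.18 and 0.27 in tumor 2, between -0.25 and -0.044 in tumor 4 and between -0.21 and 0.15 in tumor 5. With no filter the median difference was 0 in tumors 2 and 5, with 28 of the 67 genes at the floor in every tumor and so at a difference of 0, and the median SD was 0.13. With the filter at the 75th percentile, which left 6 matrix genes, the medians of tumors 2 and 5 were -0.13 and 0.067. Differences of single genes, each in the tumor where it was largest, kept their sign in every refit. Such a tumor is always the highest or lowest of the 4. Leaving out another tumor or moving the common floor could hardly change the sign, so its constancy says little. Over all genes tested, 110 passed in tumor 1; 57 did with the floor at the 50th percentile, 29 with the filter at the 75th, and 208, 177 and 204 without tumors 2, 4 and 5. Tumors 2, 4 and 5, with 0 passing, had 29, 7 and 47 without tumor 1, and 1, 5 and 6 with no filter. No paired analysis was possible because all 4 tumors belong to 1 group.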
